A study of Mus musculus with 2 samples.

Results

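The fatty acid elongases and desaturases examined here are 10 genes, namely Elovl1, Elovl2, Elovl3, Elovl5, Elovl6, Fads1, Fads2, Fads3, Scd1 and Scd2. They were chosen by gene symbol and stand for 24 probe sets on an array that covers 18193 named genes. Liver RNA came from male 129SvEJ mice, 8 weeks of age, either wild type or pparalpha -/- (PPARα-null), and mice of both genotypes ate chow with 0.2% fenofibrate for 7 days. Per the series' design text, RNA of 3 mice of a genotype was pooled, and each pool gave 1 Affymetrix array. Fenofibrate activates PPARα, a lipid-sensing nuclear receptor of hepatocytes. No array of mice without the drug was analysed here, so a difference between the arrays joins what the genotypes differ in without fenofibrate and what they differ in under it. Which part of the receptor gene was disrupted, and in which tissues, is not stated in the labels.

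With 1 array per genotype there are no replicates, and no value below has a standard error, a test or a p-value. A gene was counted as measured when its signal reached the floor, the median signal of the array, on at least 1 array (287.8 in wild type and 269.4 in null). Lower signals were set to the floor, each gene was read from its brightest probe set (by mean log2 signal), and a difference of 2-fold or more was called by size. As a gauge of scatter within the pair of arrays, the pooled SD between probe sets for the same gene was 0.42 in log2 ratio over 3917 genes, which leaves out any difference between mice or pools. The targeted gene Ppara had less signal in null at each of 3 probe sets (7957 against 3414, 5833 against 2953 and 4312 against 1551, wild type against null).

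Elongases and desaturases of the endoplasmic reticulum remodel the fatty acids that the liver makes or takes up. An elongase catalyses the first, rate-limiting step of a cycle that lengthens an acyl-CoA by a pair of carbons, and a desaturase, fed with electrons through cytochrome b5, inserts a double bond. The saturated and monounsaturated branch uses Elovl6, Elovl3, Elovl1 and the stearoyl-CoA desaturases Scd1 and Scd2. The polyunsaturated branch turns linoleic and alpha-linolenic acid into arachidonic and docosahexaenoic acid through Fads2, Elovl5, Fads1 and Elovl2, in that order for the first use of each.

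Scd1, Fads2 and Elovl5 exceeded their PPARα-null signals by 2-fold or more in wild-type liver, and no measured member was 2-fold lower. Of the 10 genes 9 were measured, all 9 of them on both arrays, and Fads3 was under the floor at every probe set. Calls in the higher direction were thus 3 of 9 members, against 4.99% of the 13041 measured genes (3.61% of the 10060 measured on both arrays). Calls in the lower direction were 0 of 9, against 2.80% of measured genes (2.24% of those measured on both arrays). Over the 9 members the log2 ratios (wild type over null) had a median of 0.62, against 0.005 over all measured genes. Members spread widely around it, from -0.10 to 1.60 with an SD of 0.61, so the median stands for no typical member.

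**Figure D1:**
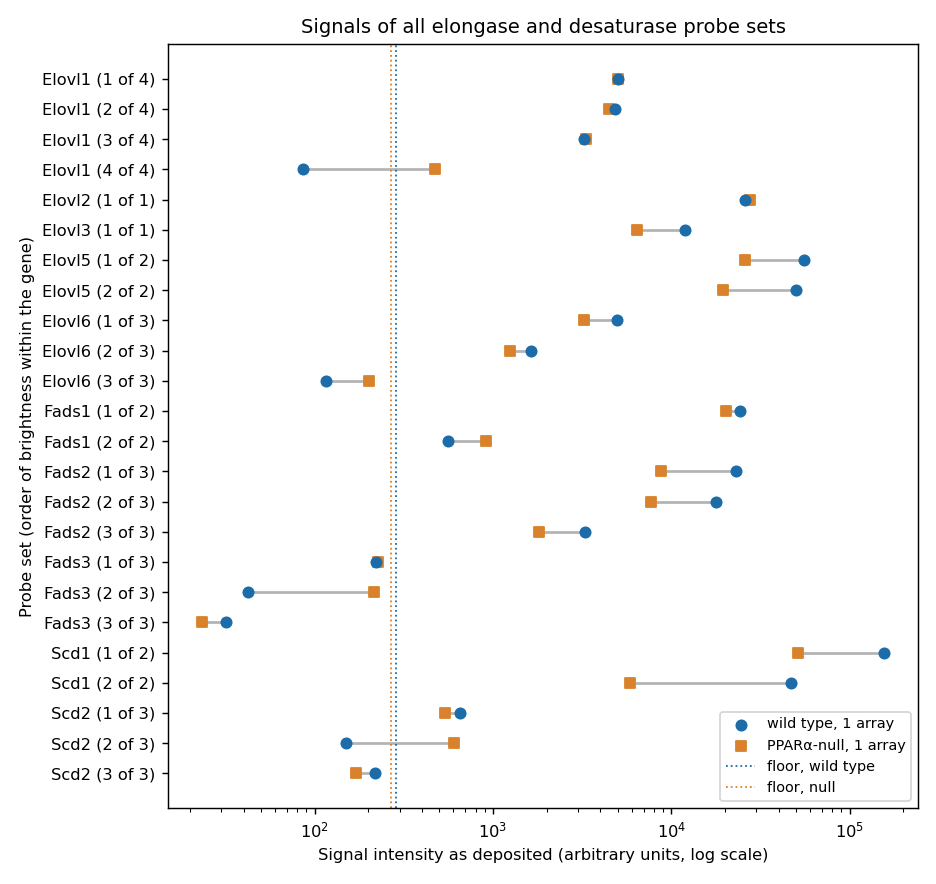
Signal intensity as deposited (horizontal, log scale) of each of the 24 probe sets of the 10 genes (vertical, ordered by brightness within a gene), with circles for the wild-type array, squares for the null array and dotted lines at the 2 floors. The circles of Scd1, Fads2, Elovl5, Elovl3 and the brighter 2 Elovl6 probe sets lie to the right of the squares, the 3 bright Elovl1 probe sets and Elovl2 nearly coincide, and all Fads3 probe sets lie left of the floors.

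The largest difference among the members belonged to Scd1, the main stearoyl-CoA desaturase of adult mouse liver, which makes oleate and palmitoleate. The brightest Scd1 probe set read 156806 in wild type and 51606 in null, or 3.04-fold. The other probe set of the gene, annotated to the same RefSeq transcript, gave 47102 and 5864, a ratio of 8.03-fold. The probe sets thus shared the direction but lay 1.40 apart in log2 ratio. From the scatter between probe sets of a gene, the SD of such a difference would be 0.60. By its brightest probe set Scd1 held rank 126 from the highest ratio among 13041 measured genes.

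Scd2, an isoform better known from brain and from the liver of newborns, was dim and its direction rested on the probe set. Its brightest probe set gave 652.5 in wild type and 536.3 in null, or 1.22-fold. Another gave 150.8 and 601.9, so that wild type lay under the floor and null was at least 2.09-fold higher. The remaining Scd2 probe set was under the floor on both arrays, with 219.1 and 170.8. In the order of protein-coding genes in RefSeq (GRCm38.p6), Scd3, Scd2, Scd4 and Scd1 follow each other without a gene between them. Scd3 was also under the floor on both arrays (60.0 and 139.8 at its brighter probe set), and Scd4 was not analysed here.

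Among the elongases of saturated and monounsaturated chains, ratios fell short of the threshold. Elovl3, which builds very long saturated and monounsaturated chains and is known for male-biased, rhythmic expression in mouse liver, gave 11923 in wild type and 6428 in null at its single probe set, or 1.85-fold. Elovl6, which extends palmitate to stearate and so supplies Scd1, gave 4991 and 3242, or 1.54-fold. A further Elovl6 probe set gave 1630 and 1252, or 1.30-fold, and the dimmest lay under the floor on both arrays (115.1 and 202.6). Both genes were therefore higher in wild type at every probe set measured, by less than 2-fold. Both passed 2-fold only when the arrays were scaled to the hybridization controls, which raised Elovl3 to a log2 ratio of 1.27 and Elovl6 to 1.00.

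Elovl1, the elongase of very long saturated chains for sphingolipids, was at nearly the same signal in both genotypes. Its 3 bright probe sets gave 5017 against 5049, 4844 against 4454 and 3234 against 3342 (wild type against null), with log2 ratios of -0.01, 0.12 and -0.05. A dim probe set of the gene was under the floor in wild type (86.5) and above it in null (470.7). The Elovl1 log2 ratio was positive in 4 of 12 settings of the processing, so it has no settled sign.

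In the polyunsaturated branch the calls fell on the earlier enzymes and not on the later ones. Fads2, the desaturase of the entry step, had 3 probe sets, all above the floor on both arrays and all higher in wild type. They gave 22976 against 8752, 17881 against 7730 and 3279 against 1824 (wild type against null), which are 2.63-fold, 2.31-fold and 1.80-fold. Elovl5, the elongase that acts on the product of Fads2, gave 55773 against 26002 at its brightest probe set, or 2.14-fold, and 49839 against 19616 at the other, or 2.54-fold. Ranks from the highest ratio were 206 for Fads2 and 500 for Elovl5 among the 13041 measured genes.

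Fads1, which makes the later desaturation on the way to arachidonic and eicosapentaenoic acid, was close to equal at its bright probe set. That probe set gave 24294 in wild type and 20408 in null, or 1.19-fold. The dim Fads1 probe set pointed the other way, with 562.0 and 910.9, a log2 ratio of -0.70. Elovl2, which lengthens the longer polyunsaturated chains towards docosahexaenoic acid, read 25885 in wild type and 27744 in null at its single probe set (log2 ratio -0.10). Its sign turned under scaling to the hybridization controls, to 0.28.

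Differences between members on the same pair of arrays do not depend on how the arrays are scaled to each other by 1 factor. The log2 ratio of Fads2 exceeded that of Fads1 by 1.14, and by 0.59 to 2.09 over all pairings of their probe sets. Elovl5 exceeded Elovl2 by 1.20, and by 1.20 to 1.45 over probe sets. The gap between Elovl5 and Fads1, which follows it in the branch, was smaller at 0.85, and 0.85 to 2.04 over probe sets. The SD of a difference between 2 such log2 ratios would be 0.60 from the scatter between probe sets, so each gap between the brightest probe sets was larger than that SD, and the smallest Fads2 gap over pairings was not. Fads2 and Elovl5 differed from each other by 0.29, less than that SD. These gaps have no replicate check.

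Fads1, Fads2 and Fads3 are direct neighbours in RefSeq, in the order Fads3, Fads2, Fads1. The middle gene was at least 2-fold apart between these arrays and Fads1 was not. Fads3, whose product is reported to act on sphingoid bases, had signals of 220.9 and 226.8, 42.5 and 214.6, and 31.9 and 23.5 (wild type and null), all under the floors, so no ratio is given for it.

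**Figure D2:**
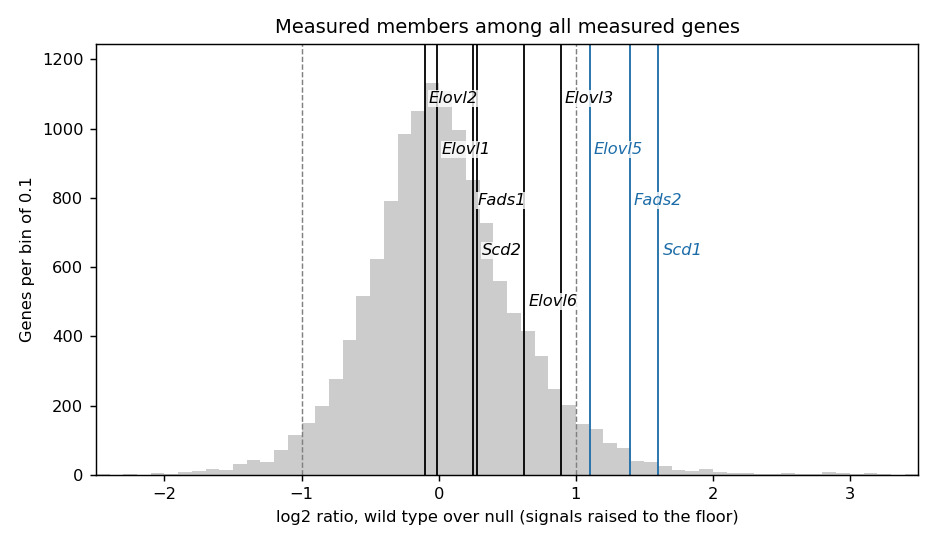
Histogram of log2 ratios, wild type over null, for the 13041 measured genes (bins of 0.1, shown from -2.5 to 3.5), with a vertical line for each of the 9 measured members and dashed lines at 2-fold. Scd1, Fads2 and Elovl5 lie beyond the right dashed line, Elovl3 and Elovl6 lie on the right shoulder, and Scd2, Fads1, Elovl1 and Elovl2 lie within the body of the distribution.

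To show the start regions of called members, the 250 bases before the annotated RefSeq start (GRCm38.p6) of Elovl5 and Fads2 are printed, both from windows in the RefSeq promoter table. That table held windows for 6 of the 10 genes, 8 windows in all, and had none for Elovl3, Fads1, Scd1 and Scd2. Capitals mark every match, on either strand, to any of the motifs searched. The Elovl5 sequence is chr9:77917115-77917364 on the plus strand, and the Fads2 sequence is chr19:10101504-10101753 on the minus strand.
Elovl5: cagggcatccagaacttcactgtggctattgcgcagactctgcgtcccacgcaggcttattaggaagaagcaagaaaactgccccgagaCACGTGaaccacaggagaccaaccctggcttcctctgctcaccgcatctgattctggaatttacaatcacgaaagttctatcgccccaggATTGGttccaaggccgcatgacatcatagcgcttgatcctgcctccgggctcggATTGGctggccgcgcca
Fads2: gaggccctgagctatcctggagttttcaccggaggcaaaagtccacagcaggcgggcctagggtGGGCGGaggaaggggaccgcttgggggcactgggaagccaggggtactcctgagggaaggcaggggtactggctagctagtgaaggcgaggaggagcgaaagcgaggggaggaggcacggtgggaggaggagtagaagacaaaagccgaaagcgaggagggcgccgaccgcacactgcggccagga

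The motifs searched were the receptor element AGGTCA, the direct repeat of that element with 1 base between the copies, which PPAR and RXR bind together (the single element also matches inside it), a sterol regulatory element (TCACNCCAC), the NF-Y box (CCAAT), an E-box (CACGTG) and a GC box (GGGCGG). The full direct repeat was found in 0 of the 8 member windows and in 0.0335% of all 32851 windows of this length. The sterol element was found in 0 of 8 and in 346 of all windows. The Elovl5 window held the NF-Y box at 2 places and the E-box at 1, and the Fads2 window held a GC box at 1 place. Over all windows these motifs occurred in 33.8%, 6.02% and 32.7%. The single AGGTCA element was in 2 of the 8 member windows, of Elovl1 and Elovl6, and in 14.0% of all windows. No match here says only that these letters are not in this window.

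The other enzymes of the elongation cycle were in part higher in wild type with the called members. Among the 6 measured, 2 passed 2-fold upward in wild type and 0 downward, and the list's median was 0.52 in log2 ratio. Beside the counts of this and the following lists stand the shares over all measured genes, 4.99% higher and 2.80% lower. Lists this short do not allow a close comparison with those shares. Hacd3, a dehydratase of the cycle, gave 34711 in wild type and 14893 in null, or 2.33-fold, and its further probe sets gave 1.72-fold and 2.12-fold. Hacd1, a dehydratase best known from muscle, gave 10666 and 5128, or 2.08-fold, and 1.77-fold at its other probe set. Hsd17b12, which carries out the first reduction of the cycle, gave 21156 and 12876, or 1.64-fold, and Tecr, which carries out the last reduction, gave 32614 and 25956, or 1.26-fold. Hacd4 was under the floor in wild type (235.9 against 527.3). By the second brightest probe set 0 of the 6 were 2-fold higher, and without probe sets ending in _s_at or _x_at, or with the median over probe sets, Hacd3 alone was.

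None of the 5 measured cytochrome b5 and reductase genes, listed for electron supply to the desaturases, differed by 2-fold in signal. The largest ratios were those of Cyb5b, an outer mitochondrial cytochrome b5 (18706 in wild type and 15551 in null), and of Cyb5a, the microsomal form (90281 and 107606). The log2 ratios of the list lay between -0.25 and 0.27, and its median of -0.17 turned to 0.21 under scaling to the hybridization controls.

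The list for palmitate and malonyl-CoA supply, which also holds genes that use or break down malonyl-CoA, had a median log2 ratio of 0.20. Of its 9 measured genes, 1 passed 2-fold upward in wild type and 0 downward. That gene was malic enzyme (Me1), a source of NADPH, with 49442 against 12173, or 4.06-fold. Fatty acid synthase (Fasn) gave 8779 and 5319, or 1.65-fold, and ATP citrate lyase (Acly) gave 9635 and 8536, a log2 ratio of 0.17, while its next 2 probe sets pointed the other way, with -0.40 and -0.19. Thrsp, a lipogenic protein, was lower in wild type, with 58444 against 93978 and a log2 ratio of -0.69.

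Among regulators of lipogenesis 10 genes were measured, of which 0 passed 2-fold upward in wild type and 1 downward, around a median of 0.08 in log2 ratio. Srebf1, which encodes SREBP1, a transcription factor that drives Scd1 and the Fads genes, read 8582 in wild type and 8227 in null, for a log2 ratio of 0.06. Mlxipl, which encodes the glucose-responsive factor ChREBP, had a log2 ratio of -0.27, and Nr1h3, which encodes LXRα, 0.12. The coactivator gene Ppargc1b gave 816.4 and 1766, so it was 2.16-fold lower in wild type, and that call was lost under scaling to the hybridization controls. Insig1 and Insig2, which hold SREBP in the endoplasmic reticulum, had opposite signs, with log2 ratios of -0.72 and 0.59. The further Insig2 probe sets gave smaller log2 ratios of 0.33 and 0.36. After scaling to the hybridization controls 7 of the 10 genes in the list were positive.

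Peroxisomal enzymes, which carry out the final chain shortening to docosahexaenoic acid and are classical PPARα targets, had the highest median of the related lists. With 9 genes measured, 7 passed 2-fold upward in wild type and 0 downward, and the median was 1.59 in log2 ratio. The bifunctional enzyme Ehhadh gave 98088 against 13156, and Hsd17b4, the one used for very long chains, gave 43029 against 14298, or 3.01-fold. The transporter Abcd2, known to carry polyunsaturated and very long acyl-CoA, gave 1872 in wild type and 89.8 in null, at least 6.95-fold higher, and Abcd3 was 2.57-fold higher. Acaa1a (2.86-fold), Acaa1b (3.43-fold) and Decr2 (7.27-fold) completed the called genes. The Acaa1a call was lost without probe sets ending in _s_at or _x_at, and those of Acaa1a (1.60-fold) and Abcd3 (under the floor on both arrays) with the second brightest probe set.

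Genes that activate fatty acids to acyl-CoA or place acyl chains in phospholipids had a median log2 ratio of 0.25. Of the 9 measured, 2 passed 2-fold upward in wild type and 0 downward. Acsl5, a long-chain acyl-CoA synthetase, gave 33329 against 13469, or 2.47-fold. Mboat2 was under the floor in null (549.7 against 246.2, at least 2.04-fold), and that call was lost after median centring, quantile normalization or loess and with higher floors. Lpcat3, which places arachidonate in phosphatidylcholine, gave 10343 and 6607, a log2 ratio of 0.65.

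Of the elongases and desaturases outside the chosen genes, 4 were measured, with 1 higher, 1 lower and a median log2 ratio of -0.09 that turned to 0.29 under scaling to the hybridization controls. Elovl7 gave 800.5 in wild type and 330.6 in null, or 2.42-fold, but its null signal lay under the brightest Bacillus control probe set of that array (422.4), and the call was lost with floors at these controls or at the 75th percentile and with the median over probe sets or the second brightest one. Fads6, a desaturase-like gene, was 2.02-fold lower in wild type, with 1546 against 3122 and with 672.9 against 1311 at its other probe set. That call was lost under quantile normalization, loess, control scaling and the choices of the median or the second brightest probe set.

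**Figure D3:**
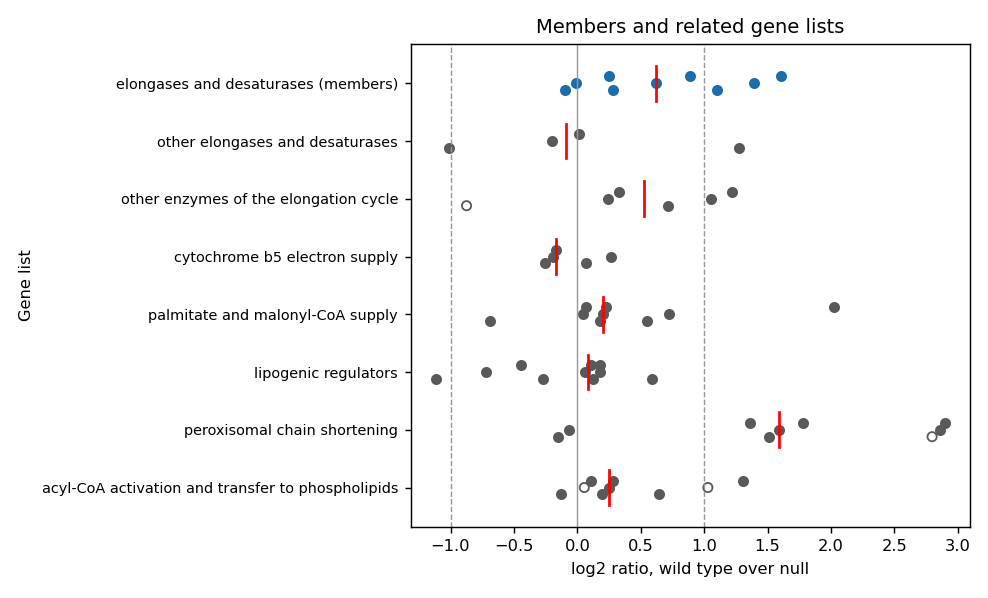
Log2 ratio, wild type over null (horizontal), of each measured gene in the 9 members and in 7 related gene lists (vertical). Filled points were above the floor on both arrays, open points on 1 array, red bars are list medians and dashed lines mark 2-fold. Peroxisomal genes lie farthest right, with a median of 1.59, and the cytochrome b5 genes lie closest together, from -0.25 to 0.27.

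Of the hepatocyte markers with a named probe set, 8 of 8 were above the floor on both arrays, with a summed signal of 898467 in wild type and 1074540 in null. All 8 had lower signals in wild type (median log2 ratio -0.31), with 1 call, Ass1, at a dim probe set (501.4 against 1406), and 5 of 8 became positive under scaling to the hybridization controls. Kupffer cell markers were lower in wild type for 6 of 6 measured genes, with a median of -0.63 and summed signals of 14817 and 21842 over all 7 with a probe set. The 1 call among them was Cd5l (1910 against 4052, 2.12-fold lower in wild type). Under scaling to the hybridization controls that call was lost, the Kupffer median was -0.25 and 1 of the 6 genes was positive. Median log2 ratios were -0.09 over 6 endothelial, -0.06 over 6 stellate, -0.24 over 3 cholangiocyte and -0.74 over 4 erythroid markers. The endothelial marker Pecam1 went the other way and was called higher in wild type (636.9 against 228.0, under the floor in null, at least 2.36-fold). The endothelial, stellate and cholangiocyte medians turned positive under the control scaling. Of the 3 cholangiocyte markers 0, and of the 4 erythroid markers 2, were above the floor on both arrays. The remaining ratios of those lists rest on a floor on 1 array. Of 5 lymphocyte markers 1 reached a floor. The adipocyte markers Adipoq, Lep and Retn were under the floor on both arrays. In bulk liver, fewer cells of a type and less RNA per cell cannot be told apart, and the part of cell makeup in the ratios of the members was not tested.

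Scaling moved all ratios together. The hybridization controls, added in equal amounts in the standard protocol, had a median log2 ratio of -0.38, and scaling to them raised the median of all measured genes to 0.38. Under it 5 of 9 members were at least 2-fold higher, Elovl3 and Elovl6 in addition, against 13.5% of measured genes, and all 9 had a positive log2 ratio. Genes higher in wild type made up 64.1% of all 2-fold calls as deposited, 94.2% under the control scaling and 49.5% with floors at the brightest Bacillus controls. At 1.5-fold the same 5 members were called, against 14.8% of measured genes. Scd1, Fads2 and Elovl5 were at least 2-fold higher in all 12 settings in which the threshold was kept, with log2 ratios of 1.56 to 3.01, 1.21 to 1.77 and 1.06 to 1.48. The choices of floor and the removal of probe sets ending in _s_at or _x_at left these ratios exactly as reported. They could not change them, since the signals lay far above the floors and the brightest probe sets were kept. No setting read the dimmest Fads2 probe set alone (1.80-fold). At 3-fold, Scd1 remained the single call among the members, against 1.01% of measured genes.

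**Figure D4:**
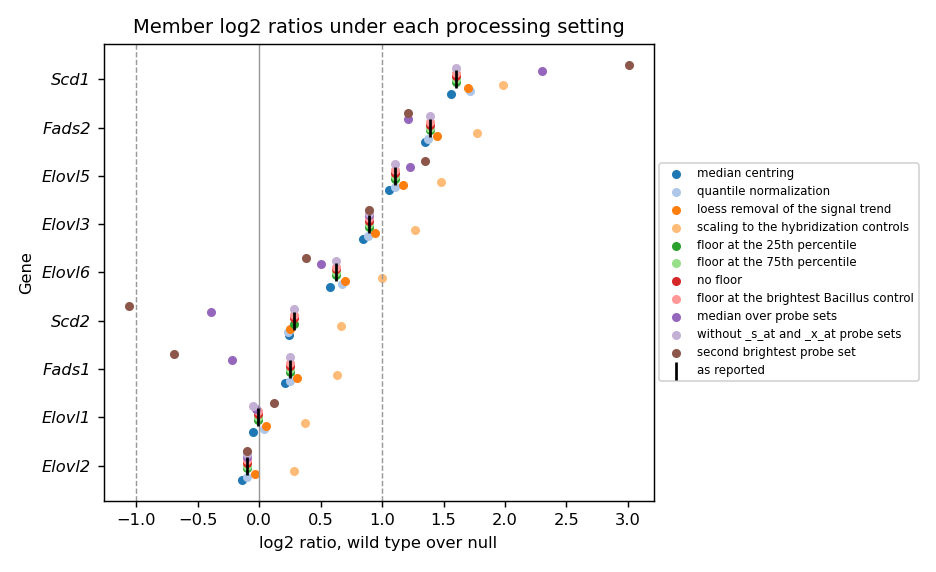
Log2 ratio, wild type over null (horizontal), of each of the 9 measured members (vertical) as reported (black bars) and under the other settings of scaling, floor and probe set (coloured points). Scd1, Fads2 and Elovl5 stay right of the dashed line at 2-fold under each, while Scd2, Fads1 and Elovl1 cross 0 with the choice of probe set. Elovl1 and Elovl2 cross 0 with the scaling.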

How the data were processed

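The deposited values are linear signal intensities, 1 for each probe set on each array. The authors summarised probe pairs with Affymetrix's statistical algorithm and scaled each array to a target of 1000, per the labels. A mean trimmed by 2% at each end came to 1000.01 on both arrays. The labels carry the same quality text for both arrays, which was not used. The sources used here give no software version and no detection calls.

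Symbols were taken from the platform's annotation (2016). Of 45037 probe sets that are not controls, 34945 had 1 symbol, 932 several and 9160 none, and those with several or none were left out. The RefSeq table (GRCm38.p6) held the identifiers of 34741 of the 34945 and changed 0 symbols. Log2 ratios, floors and counts were computed with pandas 2.3.3 and numpy 2.4.6 over the whole table. The calling procedure was run on simulated data with planted differences and noise set to the scatter between probe sets. That noise held no difference between mice or pools, so the run does not bear on whether the calls would repeat. The number of arrays limits the precision. The members, related lists, settings and rules were chosen with earlier results of these data known. Named were all members, Ppara, and the genes of each related list at least 2-fold apart, or else its largest 2. Hsd17b12, Tecr, Hacd4, Fasn, Acly, Thrsp, Srebf1, Mlxipl, Nr1h3, Insig1, Insig2, Lpcat3, Scd3, Ass1, Cd5l, Pecam1, Adipoq, Lep, Retn, Retsat and Enc1 were added after their values were seen. The 13 alternatives concern scaling, floor, probe set and threshold.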

Additional observations from a re-analysis of the deposited data

How the results depend on the processing

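The 3 members at least 2-fold higher became 5 under scaling to the hybridization controls, 5 at a threshold of 1.5-fold and 1 at 3-fold. The count of members at least 2-fold lower, 0 as reported, became 1 of 9 with the second brightest probe set. That member was Scd2, under the floor in wild type there, and 3.26% of measured genes were 2-fold lower under that setting. Over the settings, the members' median ran from 0.38 to 1.00 in log2 ratio. Over all measured genes, 651 higher and 365 lower calls became 1759 and 109 under the control scaling, 2336 and 1650 with the floor at the 25th percentile, 157 and 98 at the 75th, 3096 and 2177 with no floor, 1925 and 1439 at 1.5-fold, and 132 and 58 at 3-fold. With floors at the brightest Bacillus controls 297 were higher. A lower or higher threshold changes the counts by its construction, and for the other changes the cause was not tested. No called member value changed sign. Of 98 recomputed values of single members 6 moved by more than the pooled SD of 0.42, all under another choice of probe set for Fads1, Scd1 or Scd2. Fads3, with no value as reported, was measured with the floor at the 25th percentile and with no floor. Of 259 values of related lists 35 moved, 34 of them counts. No paired analysis was possible because each genotype has 1 array. Signals near the floor, those of Scd2 and Fads3, limit what can be said of these genes.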

Other observations

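The Scd1 probe sets were set beside those of other genes in a comparison chosen after the data were seen. Me1, which supplies NADPH for fatty acid synthesis, had the same form, with 4.06-fold at its brightest probe set and 9.16-fold (26476 against 2889) at the next. Among 54 genes whose brightest 2 probe sets, both above the floor on both arrays, averaged at least 2-fold higher in wild type, the brightest had the smaller ratio in 24 and the larger in 30. A gap of 1 or more in log2 ratio with the smaller ratio at the brightest probe set occurred in 4 of the 54, namely Scd1, Me1, Retsat and Enc1. Among 34 genes with an average at least 2-fold lower in wild type, the brightest lay nearer to equality in 19, and by 1 or more in 8. Among 3829 genes within 2-fold it lay nearer in 2084, and by 1 or more in 171. The size of the Scd1 difference depends on which probe set is read.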
